A study of Homo sapiens with 16 samples.

Results

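Acetylation of histone H3 at lysine 27 (H3K27ac) was compared between 2 pairs of ChIP-seq libraries that held the same amount of chromatin but came from different arms of an antibody titration. The libraries were chosen by their labels: 10-T1a and 20-T0.5 from the arm with a fixed amount of antibody, and 10-T1b and 20-T1 from the arm with the antibody normalized to the chromatin. These were 4 of 16 samples, the others being 10 ChIP libraries from smaller amounts of chromatin and 2 inputs. The first number in a name is the amount of chromatin, measured as its DNA content (DNAchrom, in µg), and T is the antibody titer, set to 1 for 0.25 µg of antibody per 10 µg of DNAchrom. The 10 µg pair, 10-T1a and 10-T1b, therefore shared amount and titer at 0.25 µg of antibody. The 20 µg pair differed in titer as well, with 0.25 µg of antibody in 20-T0.5 and 0.5 µg in 20-T1. All libraries came from cross-linked K562, an established human erythroleukemia line, with 1 lot of a polyclonal antibody against H3K27ac (ab4729). There was 1 library per condition, so that values are given without a test and a difference between the arms has no replicate check. The labels name 2 inputs, and the input background behind the peaks was alike within an arm and not between arms, as shown further on. Arm, input and any difference in preparation therefore cannot be told apart, and in the 20 µg pair neither can the titer.

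H3K27ac is deposited mainly by the acetyltransferases p300 and CBP and marks active promoters and enhancers. In K562, which carries the BCR-ABL1 fusion and expresses fetal and embryonic globins, it covers the genes of the erythroid program, such as those bound by GATA1 and TAL1. In a ChIP reaction, antibody in short supply limits how many marked nucleosomes are recovered, and antibody in excess lets more unmarked chromatin come down.

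The lists were cut at a -log10 q of 2, a false discovery rate of 1%, with positions in GRCh38. The lists held 79433 peaks in 10-T1a, 73612 in 20-T0.5, 79967 in 10-T1b and 78761 in 20-T1, and 20-T0.5, the library with the lowest titer, had the fewest. The peaks covered 65.3 and 63.4 Mb in the fixed lists and 72.2 and 73 Mb in the normalized lists, with 72 and 88 against 147 and 145 peaks longer than 10 kb. The lowest -log10 q kept was 2.00501, 2.01022, 2.00264 and 2.00770 in the order 10-T1a, 20-T0.5, 10-T1b, 20-T1, and the highest left out was 1.99439, 1.99581, 1.99974 and 1.99866. All 9 K562 markers examined, among them GATA1, TAL1, KLF1, HBG1, HBG2, TFRC, LMO2 and MYB, had a peak within 1 kb of the transcription start site (TSS) in all 4 lists. Of 11 markers of other blood cells, 6 (MS4A1, CD3E, CD2, LCK, PAX5, MPO) had none in any list, and CD79A had one in all 4.

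Each deposited fold enrichment is the number of fragments over the summit plus 1, divided by the number expected from the input plus 1. Both terms could be recovered from the fold enrichment and p-value of every peak: a whole-number fragment count, called the pileup here, and the expected number, called the background. The pileup is the ChIP signal itself, and the background comes from an input library. The lowest background was 0.86 in 10-T1a, 0.81 in 20-T0.5, 0.83 in 10-T1b and 0.74 in 20-T1. It was shared by 10.8%, 10.4%, 9.72% and 13.3% of the peaks in that order, so that it acts as a floor of each list. By counting error alone, a pileup of 10 has an exact 95% Poisson interval of 4.8 to 18.4, one of 20 of 12.2 to 30.9 and one of 40 of 28.6 to 54.5. PCR copies are not independent molecules, so these intervals are too narrow for the experimental error. Pileups over the peaks had the same median in the arms, with a log2 ratio of 0.00 in both pairs over the shared regions, and a difference is given relative to the median of its pair.

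The fold enrichment of FBXL18, USP34 and ACBD5 was higher in both fixed lists, and that of USP24, SP5 and ADSS1 in both normalized lists. The promoters of 6 genes are printed here from RefSeq (GRCh38.p14), 250 bases before to 50 after the TSS. They show the genes by direction: USP34, DHX36 and CHM were higher in the fixed lists, and SP5, ADSS1 and APOE in the normalized lists. Capitals mark the letters TGACG on either strand (CGTCA as printed), the core of the sites that CREB and ATF factors bind. The set was chosen after the values were seen, with 1 gene in each direction that goes against the shares given further on. Positions are chr2:61471038-61471337 (minus strand) for USP34, chr3:154324438-154324737 (minus) for DHX36, chrX:86047509-86047808 (minus) for CHM, chr2:170715087-170715386 (plus) for SP5, chr14:104723979-104724278 (plus) for ADSS1 and chr19:44905546-44905845 (plus) for APOE.
USP34: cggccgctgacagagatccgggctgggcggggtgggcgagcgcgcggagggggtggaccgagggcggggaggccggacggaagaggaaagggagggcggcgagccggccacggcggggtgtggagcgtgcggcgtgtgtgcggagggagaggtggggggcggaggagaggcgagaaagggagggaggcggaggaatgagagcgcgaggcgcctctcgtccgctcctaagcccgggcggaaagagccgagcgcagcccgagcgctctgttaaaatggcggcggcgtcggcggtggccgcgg
DHX36: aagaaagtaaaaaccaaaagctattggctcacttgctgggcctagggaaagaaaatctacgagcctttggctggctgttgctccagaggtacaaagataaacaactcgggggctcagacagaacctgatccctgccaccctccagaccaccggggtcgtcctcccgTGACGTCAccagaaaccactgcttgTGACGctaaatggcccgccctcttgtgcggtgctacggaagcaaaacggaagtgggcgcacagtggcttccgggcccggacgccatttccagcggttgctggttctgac
CHM: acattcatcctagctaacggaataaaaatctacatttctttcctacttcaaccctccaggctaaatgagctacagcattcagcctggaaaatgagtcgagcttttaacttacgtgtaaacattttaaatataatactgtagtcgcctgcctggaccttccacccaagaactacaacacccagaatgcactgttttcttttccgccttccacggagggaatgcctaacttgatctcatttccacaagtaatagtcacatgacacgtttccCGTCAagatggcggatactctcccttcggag
SP5: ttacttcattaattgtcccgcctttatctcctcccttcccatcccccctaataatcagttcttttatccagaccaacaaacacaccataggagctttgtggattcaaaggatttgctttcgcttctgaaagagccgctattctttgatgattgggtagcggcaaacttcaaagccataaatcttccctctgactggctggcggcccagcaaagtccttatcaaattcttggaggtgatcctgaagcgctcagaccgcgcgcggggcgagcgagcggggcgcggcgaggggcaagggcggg
ADSS1: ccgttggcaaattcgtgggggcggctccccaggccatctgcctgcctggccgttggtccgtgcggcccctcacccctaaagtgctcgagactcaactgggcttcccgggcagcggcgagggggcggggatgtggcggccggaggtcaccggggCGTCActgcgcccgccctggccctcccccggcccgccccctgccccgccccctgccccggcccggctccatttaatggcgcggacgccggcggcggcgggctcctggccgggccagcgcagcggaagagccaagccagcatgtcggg
APOE: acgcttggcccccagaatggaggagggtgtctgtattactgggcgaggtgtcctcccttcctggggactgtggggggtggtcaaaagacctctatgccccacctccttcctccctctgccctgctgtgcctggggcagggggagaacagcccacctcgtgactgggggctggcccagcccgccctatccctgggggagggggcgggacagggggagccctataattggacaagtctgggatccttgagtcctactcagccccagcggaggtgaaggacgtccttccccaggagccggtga

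The first question was which regions had a peak in 1 arm alone. The peaks of the 4 lists were merged into 116607 regions. In the 10 µg pair, which differed in neither titer nor amount, 22650 of 88025 regions (25.7%) had a peak only in the fixed list and 26483 (30.1%) only in the normalized list. In the 20 µg pair it was 18276 of 83475 (21.9%) and 26980 (32.3%). From the pair with matched titers to the pair in which the fixed library had the scarcer antibody, the fixed-only share was lower and the normalized-only share slightly higher.

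Far fewer regions differed the same way in both pairs. A peak in both fixed lists and neither normalized list was found in 3617 regions (3.10%), and the reverse in 6013 (5.16%). In 3944 regions the 2 pairs went in opposite directions. The bases covered only in both fixed lists came to 2.92 Mb and those covered only in both normalized lists to 6.43 Mb, beside 41 Mb covered in all 4 lists. Peak lists of the same arm shared more bases than lists of different arms: the Jaccard index, the shared bases over those covered by either list, was 0.621 within the fixed and 0.624 within the normalized arm, and 0.567 to 0.584 between arms. Regions missing from 1 list alone numbered 2673 for 10-T1a, 2987 for 20-T0.5, 2208 for 10-T1b and 2064 for 20-T1. With equal list sizes 20-T0.5 lacked 2395 and 10-T1a 2757, so that their order turned, while both fixed lists still lacked more than 10-T1b (2300) and 20-T1 (1868).

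**Figure D1:**
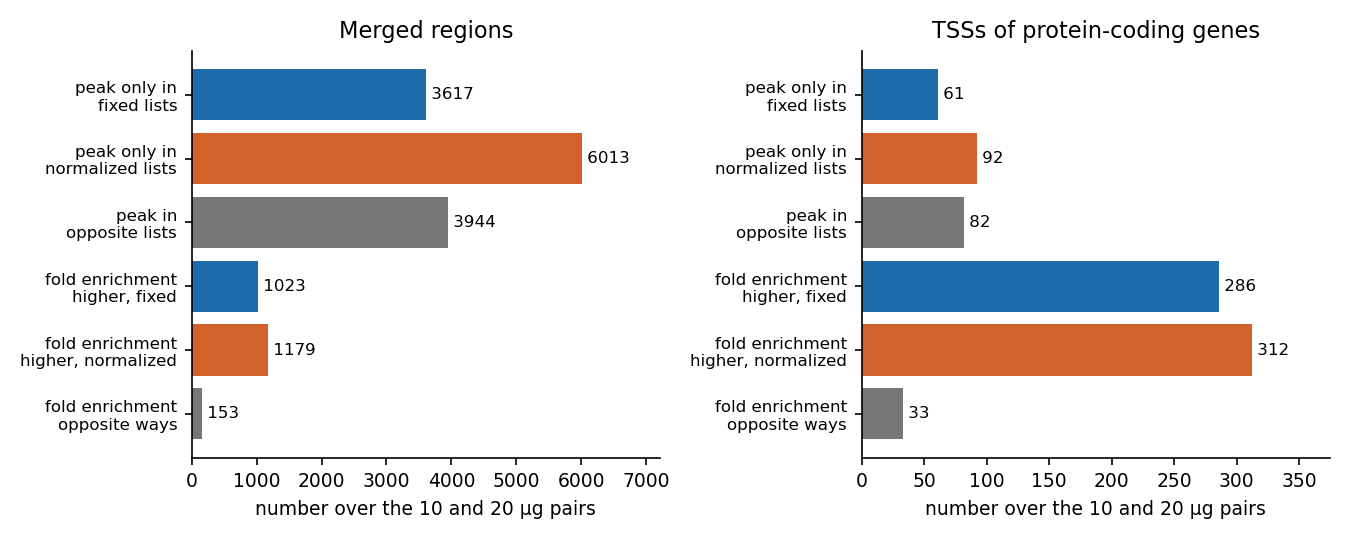
Number of merged regions and of protein-coding genes (TSS within 1 kb of a peak) that differed between the arms in the same direction in both pairs, or in opposite directions. Regions with a peak in both normalized lists alone (6013) outnumbered those in both fixed lists alone (3617), while the calls on fold enrichment were more even.

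These regions lay mostly away from promoters. Of all regions 12.7% lay within 1 kb of a TSS, and of those that all 4 lists shared 37.5%, against 4.06% of the fixed-only, 4.42% of the normalized-only and 4.21% of the opposite regions. Their median pileup was 9, 9 and 8 fragments, against 11 over all regions and 18 in regions shared by all 4. Their median widths of 449, 480 and 427 bp were above the 397 bp of all regions and below the 1699 bp of those shared by all 4. Most had no weaker peak among the deposited peaks that the threshold had left out. In the other arm, 3136 of the fixed-only regions (86.7%) and 5175 of the normalized-only regions (86.1%) held no deposited peak at any q. The deposited lists themselves stop at a -log10 q not far below the threshold used here. Signal weaker than that would not appear in them, so these shares do not show that it was absent.

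The 10 libraries from 0.31 to 5 µg of DNAchrom, which the choice of regions did not use, were then looked up. Normalized-only regions had a peak in 34%, 47%, 53.9%, 48.1% and 56.9% of cases in the normalized lists, from the smallest amount to the largest. In the fixed lists of the same amounts it was 8.75%, 11.1%, 10.8%, 15.9% and 22.6%, below the normalized list at every amount. Fixed-only regions had a peak in 24.7%, 30.3%, 31.6%, 39.6% and 49.4% of cases in the fixed lists and in 14.3%, 23.2%, 26.8%, 23% and 30.2% in the normalized lists. For these regions the fixed list was higher at every amount, by a smaller margin. In the regions that went in opposite directions the fixed lists averaged 25.1% and the normalized lists 35.4%, so that the normalized lists were also higher where the pairs did not go the same way. Regions with a peak in all 4 lists had averages of 83.7% in the other fixed and 93.8% in the other normalized lists. These libraries share the arm with the 4 compared, and the fixed ones had titers of 2 to 32. Titer cannot be told apart from arm here, and the part of the input in these shares was not tested. A peak in all 5 other lists of the own arm and in none of the other arm was rare, with 21 of the fixed-only (0.581%) and 320 of the normalized-only regions (5.32%).

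**Figure D2:**
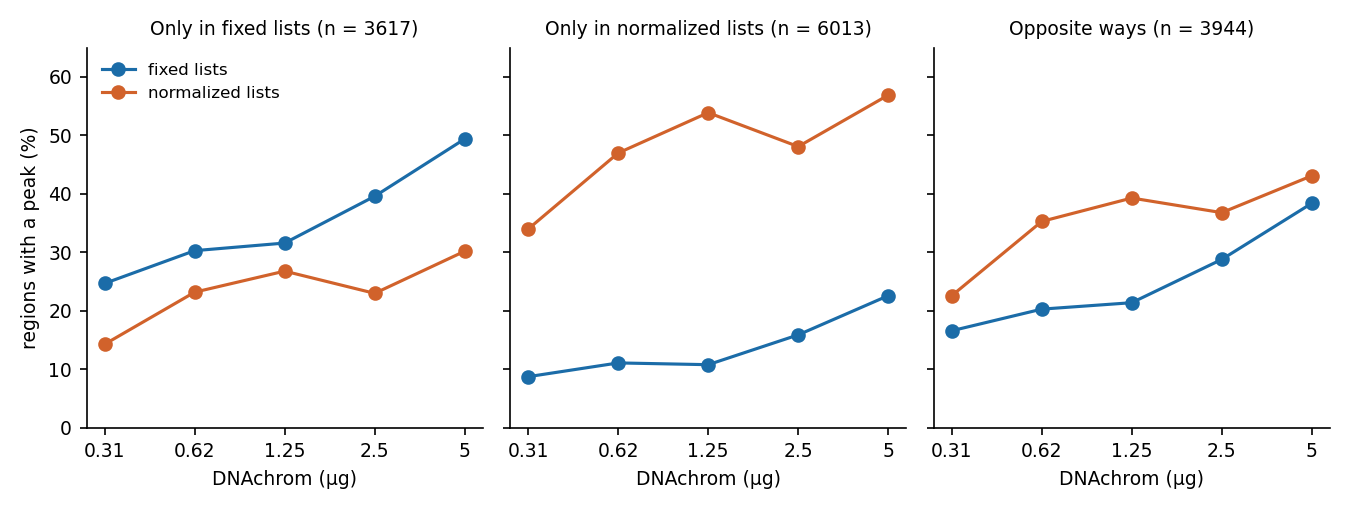
Share of regions (percent) with a peak in each of the 10 other libraries, by amount of DNAchrom (µg), for regions found only in both fixed, only in both normalized, or in opposite lists. In normalized-only regions the normalized libraries sit between 34% and 56.9% and the fixed libraries between 8.75% and 22.6%.

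Among the distal regions with a peak in 1 arm alone, chr12:110100192-110101512, 22845 bp from the TSS of IFT81, had fold enrichments of 9.83 in 10-T1b and 12.04 in 20-T1. It had a peak in all 5 other normalized lists and in 0 of the 5 other fixed lists. A region between genes at chr5:63050223-63051591 followed the same pattern, with fold enrichments of 11.44 and 8.83. On the fixed side, chr4:80058162-80058804 in ANTXR2, which encodes an anthrax toxin receptor, had fold enrichments of 8.56 in 10-T1a and 8.13 in 20-T0.5, and a peak in 5 other fixed and 0 other normalized lists. The region chr20:37710577-37711127 in CTNNBL1, with 9.03 and 7.93, had a peak in 5 and 1. Not every region found in 1 arm alone kept its arm: chr2:87603219-87603515, with 9.13 and 8.27 in the fixed lists, had a peak in 0 other fixed and 4 other normalized lists.

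At the TSS, 11419 protein-coding genes had a peak in at least 1 list and 10292 in all 4. In both fixed lists alone a TSS peak was found for 61 genes (0.534%), and in both normalized lists alone for 92 (0.806%). The pairs went in opposite directions for 82 genes. In the other libraries, 40 of the 61 had a TSS peak in more fixed than normalized lists and 8 in fewer, and 64 of the 92 in more normalized lists and 7 in fewer.

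Genes with a TSS peak in both normalized lists alone were led by SIAH1, an E3 ubiquitin ligase. The fold enrichment was 16.49 in 10-T1b and 13.19 in 20-T1, from pileups of 30 and 22 with summits 2078 and 1582 bp from the TSS. SIAH1 had a peak in 4 other normalized lists and 1 other fixed list. ALOXE3, a lipoxygenase of the epidermis, had 8.74 and 12.04, with 5 other normalized lists and 1 fixed. CLCN4, a chloride/proton exchanger, had 5.46 and 10.88, and the carboxylesterase CES3 had 6.57 and 7.42. Both had a peak in all 5 other normalized lists and in 0 other fixed lists. SPATA20 went against its class, since it had a TSS peak in all 5 other fixed lists as well. The iron transporter SLC11A2 and the integrin ITGAM also belonged to the 92 genes.

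The fixed-only genes were led by NXT2, a nuclear export factor, with fold enrichments of 9.67 in 10-T1a and 10.48 in 20-T0.5. It had a peak in 1 of the other fixed lists and in none of the normalized lists. SEC11C, a subunit of the signal peptidase complex, had 8.06 and 12.13, with 2 other fixed lists and 1 normalized. CDON, a cell-surface receptor, had 8.68 and 8.39, with 3 and 1. MLANA and DYNC2H1 had a peak in none of the 10 other lists. The predicted genes LOC102724652 and LOC102724594 lie side by side on chromosome 21 and shared 1 peak, so that they count as 1 site.

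The next question was how peaks present in all 4 lists differed in height. In the 10 µg pair the fold enrichment was at least 1.5 times higher in the fixed list in 3340 of 31387 regions (10.6%) and in the normalized list in 3618 (11.5%). In the 20 µg pair it was 3368 (10.7%) and 3572 (11.4%). Both pairs went the same way in 1023 regions toward fixed (3.26%) and 1179 toward normalized (3.76%), and in opposite directions in 153. At the TSS it was 286 of 10292 genes (2.78%) and 312 (3.03%), with 33 opposite.

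Much of this difference lay in the input background. In the regions with the fold enrichment higher in the fixed lists, the median log2 ratio in the 10 µg pair was 0.83 for the fold enrichment, 0.32 for the pileup and -0.54 for the background. In those higher in the normalized lists it was -0.83, -0.38 and 0.49. In the 20 µg pair the medians were 0.81, 0.32 and -0.52 toward fixed, and -0.84, -0.39 and 0.49 toward normalized. The background was the larger of the 2 terms in 63.2% and 63.5% of the regions toward fixed and in 56.7% and 56.7% of those toward normalized, against 47.1% and 46.5% of all regions.

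Backgrounds were alike within an arm. Where 2 lists had summits within 50 bp, the backgrounds were within 10% of each other, after scaling to the same median, in 76.3% of summits for 10-T1a and 20-T0.5 and in 74.8% for 10-T1b and 20-T1. Between arms it was 22.2 to 27.1%. The SD of the log2 ratio of backgrounds was 0.21 and 0.22 within an arm and 0.61 to 0.62 between arms, and that of the pileups 0.29 within and 0.34 to 0.35 between. The same direction in both pairs is therefore no independent repeat where the background sets it, since the libraries of an arm had nearly the same background.

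By pileup alone, 261 regions were at least 1.5 times higher in both fixed lists (0.832%) and 384 in both normalized lists (1.22%), with 71 opposite. At the TSS it was 36 genes (0.350%) and 52 (0.505%). By background alone, 704 regions were higher in both fixed lists (2.24%) and 569 in both normalized lists (1.81%), and 204 (1.98%) and 165 TSSs (1.60%). A higher background lowers the fold enrichment. The regions also differed in kind: 49.7% of those with the fold enrichment higher in the fixed lists lay within 1 kb of a TSS and 27.7% of those higher in the normalized lists. By pileup it was 34.9% and 11.7%, beside 37.5% of all regions with a peak in all 4 lists. By either measure promoters were more frequent toward fixed than toward normalized, but by pileup the fixed side was not above all such regions.

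**Figure D3:**
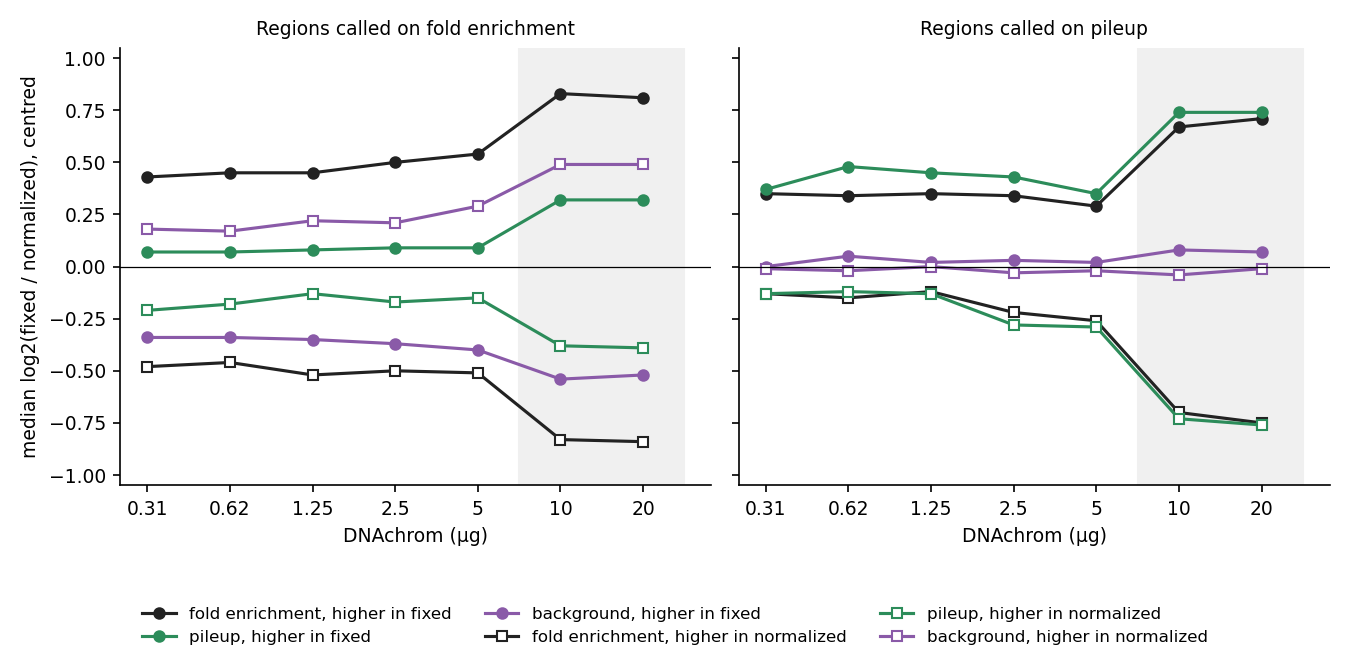
Median log2 ratio of fixed over normalized, centred on the median of the pair, for fold enrichment, pileup and background at regions called in both pairs on fold enrichment or on pileup, by DNAchrom (µg). Amounts other than 10 and 20 µg use only regions with a peak in both of their lists. The shaded amounts of 10 and 20 µg chose the regions, and at the other amounts the background of regions called on fold enrichment lies between -0.34 and -0.40 toward fixed, with pileups of 0.07 to 0.09, and between 0.17 and 0.29 toward normalized, with pileups of -0.13 to -0.21.

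At the 5 smaller amounts, which the choice did not use, the regions with the fold enrichment higher in the fixed lists had median log2 ratios of 0.43 to 0.54 in fold enrichment, 0.07 to 0.09 in pileup and -0.34 to -0.40 in background. Toward normalized the medians were -0.46 to -0.52 in fold enrichment, -0.13 to -0.21 in pileup and 0.17 to 0.29 in background. These values cover only called regions with a peak in both lists of an amount. At 0.31 µg those were 862 of 1023 toward fixed and 761 of 1179 toward normalized. Of the regions chosen on pileup it was 176 of 261 and 198 of 384. Regions without a peak in 1 of the lists drop out, so the 2 directions are not ranked. The regions chosen on pileup toward fixed had pileup medians of 0.37, 0.48, 0.45, 0.43 and 0.35 from 0.31 to 5 µg, with the same direction in 80.6% to 86.4%. Those toward normalized had -0.13, -0.12, -0.13, -0.28 and -0.29, with the same direction in 57.6% to 77.7%. In these amounts the fixed libraries had titers of 2 to 32, and titer cannot be told apart from arm there.

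Toward the fixed arm, FBXL18 (TSS at 5513809 on chromosome 7), an F-box substrate receptor of SCF ubiquitin ligases, had fold enrichments of 19.79 in 10-T1a, 17.48 in 20-T0.5, 6.76 in 10-T1b and 7.68 in 20-T1. The arms did not overlap, and the 10 other libraries kept the order, with 9.80 to 14.33 in the fixed and 5.43 to 6.98 in the normalized lists. The pileups were 36, 31, 26 and 28, and the backgrounds 0.87, 0.83, 2.99 and 2.78, so that the arms differed more in the background than in the pileup. FBXL18 was known from earlier results to differ by arm.

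USP34 (61471087 on chromosome 2), a deubiquitinase, had fold enrichments of 24.22, 25.91, 7.46 and 9.53 in the same order, from pileups of 46, 48, 32 and 35. Its backgrounds were 0.94 and 0.89 in the fixed and 3.42 and 2.78 in the normalized arm. ACBD5, an acyl-CoA-binding protein of peroxisomes, had 20.96, 21.94, 7.51 and 8.62, with pileups of 40, 41, 29 and 35. Both genes had higher pileups and lower backgrounds in both fixed libraries.

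PPP1CC, a catalytic subunit of protein phosphatase 1, had fold enrichments of 21.79, 16.21, 8.59 and 7.19, and pileups of 43, 31, 37 and 29 that overlapped between the arms. DHX36, a helicase that unwinds G-quadruplexes, had 16.47, 18.76, 6.78 and 8.62, with pileups of 35, 45, 29 and 35. RNF2, the H2A ubiquitin ligase of Polycomb repressive complex 1, had 11.96, 15.5, 5.16 and 7.15, with pileups of 26, 33, 24 and 26. In these 3 genes the fold enrichments did not overlap between arms, while the highest normalized pileup reached the lowest fixed pileup.

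FBXO33, another F-box protein, had nearly equal backgrounds in the arms. Its pileups were 25 in 10-T1a, 29 in 20-T0.5, 12 in 10-T1b and 15 in 20-T1, with backgrounds of 0.86, 0.81, 0.86 and 0.89. CHM, the Rab escort protein lost in choroideremia, had pileups of 19, 24, 10 and 13, and the mitochondrial tRNA methyltransferase TRMT61B had 21, 29, 10 and 11. In all 3 the fixed libraries were above the normalized ones. The other libraries did not keep the order for FBXO33, with pileups of 14 to 20 in the fixed and 13 to 20 in the normalized lists, nor for CHM, with 7 to 8 and 10 to 16. For TRMT61B they were 14 to 22 and 11 to 20.

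Toward the normalized arm, USP24 (55215364 on chromosome 1), a deubiquitinase, had fold enrichments of 9.04 in 10-T1a, 10.5 in 20-T0.5, 25.33 in 10-T1b and 23.27 in 20-T1. Its pileups of 44, 40, 47 and 41 overlapped, and its backgrounds were 3.98, 2.91, 0.89 and 0.8. The arms differed here in the background, and the 10 other libraries kept the order of the fold enrichment, with 5.77 to 11.48 in the fixed and 20.13 to 23.97 in the normalized lists.

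SP5 (170715337 on chromosome 2), a zinc-finger factor and a target of Wnt signaling, differed in both terms. It had fold enrichments of 6.31, 6.4, 15.8 and 18.72, pileups of 21, 24, 35 and 40 and backgrounds of 2.49, 2.91, 1.28 and 1.19. The pileups in the other libraries were 14 to 27 in the fixed and 19 to 28 in the normalized lists and overlapped. ADSS1, which makes adenylosuccinate in the purine nucleotide cycle, had fold enrichments of 7.75, 7.68, 18.05 and 20.76 and pileups of 26, 29, 35 and 37. With peaks within 5 kb of its TSS the smaller of its 2 log2 differences was -0.50, under 1.5-fold. GNG10, a G protein gamma subunit, had 4.02, 5.85, 10 and 14.07 and pileups of 13, 19, 20 and 27. The peroxisomal gene PEX11G had 5.04, 4.97, 10.95 and 13.7 and pileups of 12, 16, 24 and 29. In these 4 genes neither measure overlapped between the arms.

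APOE, the apolipoprotein E gene, had similar backgrounds of 1.51, 1.45, 1.85 and 1.66 and pileups of 29, 32, 45 and 50, higher in the normalized libraries. Its fold enrichment differed by less than 1.5 times, at 11.95, 13.46, 16.16 and 19.17. SQLE, the squalene epoxidase of cholesterol synthesis, had pileups of 20, 25, 36 and 41, and those of the other libraries were 14 to 21 in the fixed and 28 to 35 in the normalized lists, without overlap.

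**Figure D4:**
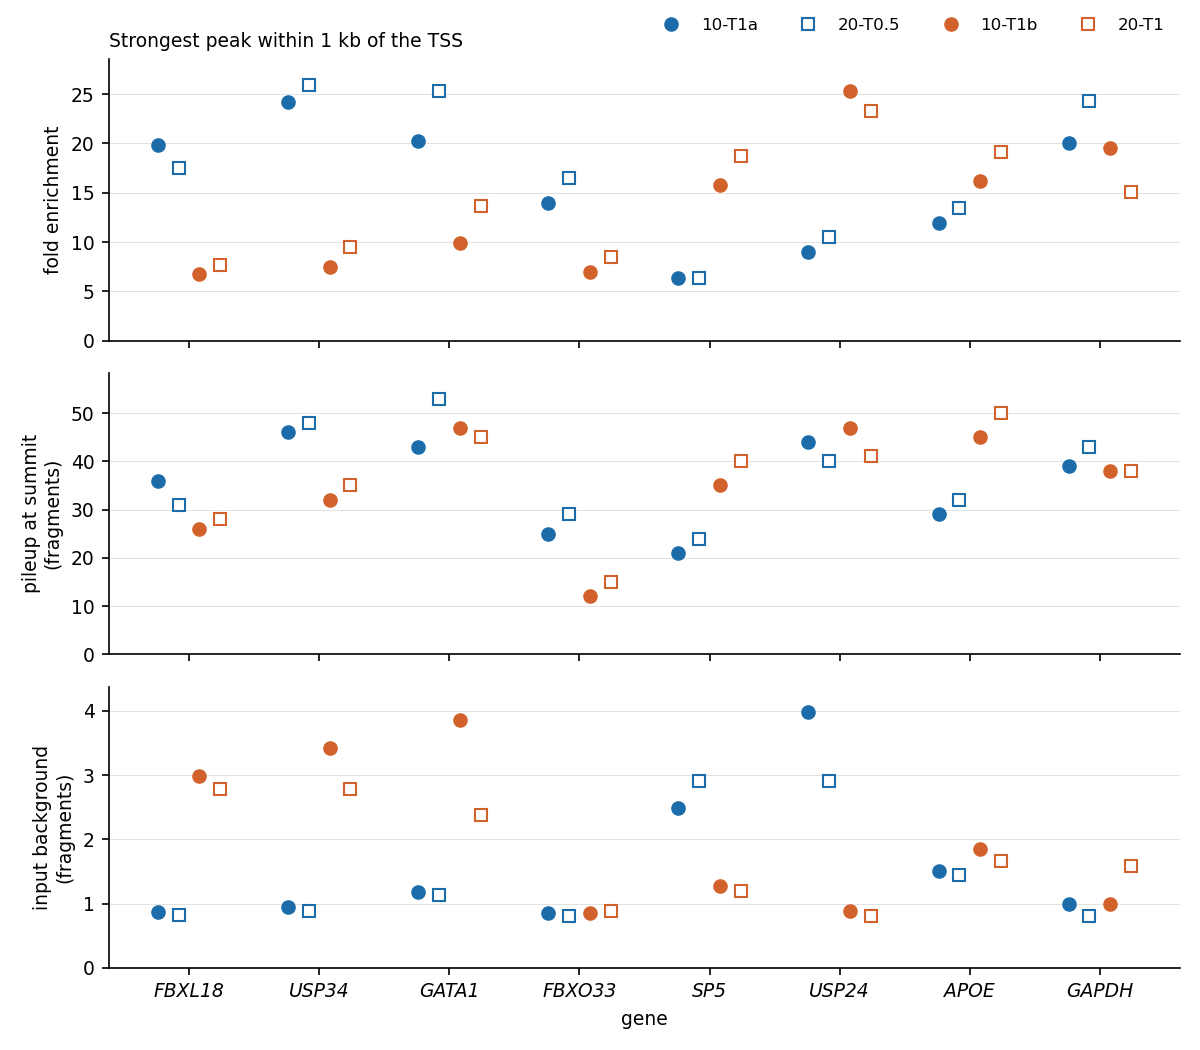
Fold enrichment, pileup (fragments at the summit) and background (fragments expected from the input) at the TSS of named genes in the 4 libraries, 1 point per library. At USP24 and FBXL18 the background separates the arms further than the pileup, and at FBXO33 the pileup separates them with nearly equal backgrounds.

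Some of the largest differences compared different summits. ENG, the TGF-beta coreceptor endoglin, had fold enrichments of 5.25 and 4.49 in the fixed and 16.89 and 17.39 in the normalized lists. Its summits lay up to 8223 bp apart, since peaks of 7916 and 8058 bp in the normalized lists reached the TSS, where the fixed lists had peaks of 818 and 360 bp. DDR1 (4600 bp apart), TSKS (4415 bp) and LOC124905230 (3526 bp) were alike. The summits were more than 500 bp apart in 113 of the 286 genes toward fixed and in 142 of the 312 toward normalized. Over all 10292 TSSs, 5654 had summits within 500 bp, so that distant summits were no more frequent among the called genes. Among the 5654, 173 and 170 were called on fold enrichment and 19 and 19 on pileup.

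In the erythroid list, 30 of 34 genes had a TSS peak in all 4 lists, of which 1 was higher in both fixed and 3 in both normalized lists. GATA1, the erythroid master regulator, had fold enrichments of 20.21, 25.32, 9.9 and 13.61 in the order 10-T1a, 20-T0.5, 10-T1b, 20-T1, but pileups of 43, 53, 47 and 45, which overlapped, and backgrounds of 1.18, 1.13, 3.85 and 2.38. ALAS2, the erythroid enzyme that starts heme synthesis, had 6.36, 11.47, 12.7 and 19.5 and pileups of 18, 22, 28 and 33, without overlap between the arms, with summits up to 1911 bp apart. In the other libraries ALAS2 had pileups of 8 to 19 in the fixed and 26 to 31 in the normalized lists. AHSP, the chaperone of alpha-globin, and EPOR, the erythropoietin receptor, were the other genes toward normalized. The list had median log2 ratios of -0.39 in the 10 µg and -0.16 in the 20 µg pair for the fold enrichment and of -0.37 and -0.19 for the pileup, beside 0.00 over all genes. Of 22 heme and iron genes with a peak in all 4 lists, ALAD and ALAS2 were higher in both normalized lists and none in both fixed lists. ALAD had fold enrichments of 3.73, 4.38, 6.74 and 10.75, with pileups of 12, 14, 12 and 18 that overlapped.

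Of 78 genes of cytosolic ribosomal proteins, RPL38 and RPL35A were higher in both fixed lists and RPL41 in both normalized lists, with list medians of 0.13 and 0.18. RPL38 had pileups of 33, 30, 17 and 17, without overlap between the arms. Of 32 proteasome genes PSMC2 and PSMB7 were higher in both fixed lists, and none in both normalized lists. Of 33 genes that write, read or erase acetylation, the deacetylases HDAC1 and HDAC4 and the bromodomain gene BRD7 were higher in both fixed lists and the acetyltransferase KAT6A in both normalized lists. Of 19 amino acid and unfolded protein response genes, ATF5 was higher in both fixed lists and SLC3A2, the heavy chain of an amino acid transporter, in both normalized lists. SLC3A2 had pileups of 39, 45, 39 and 42 and backgrounds of 2.98, 2.91, 1.21 and 1.19, so that its arms differed in the background. Of 21 cholesterol genes SQLE was higher in both normalized lists. Of 40 histone genes H4C5 was higher in both fixed lists and H4C4 in both normalized lists.

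Among 17 immediate early genes, EGR3 alone was higher in both fixed lists. FOS, which encodes a subunit of AP-1, had pileups of 19 in 10-T1a, 20 in 20-T0.5, 11 in 10-T1b and 12 in 20-T1, with 13 to 19 in the other fixed and 7 to 11 in the other normalized lists. Its arms did not overlap in the 4 libraries or in the 10 others, but in the 20 µg pair the difference in fold enrichment missed 1.5 times. No gene of the heat shock (19), hypoxia (17), progenitor (6), lymphoid (4) or BCR and ABL1 neighbour (10) lists with a peak in all 4 lists was called in either direction, and of 8 platelet genes TUBB1, the platelet beta-tubulin, was higher in both normalized lists. The shares of called genes in these lists are too small in number to be set against the 2.78% and 3.03% of all TSSs.

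Of the positive control loci of the study, PABPC1 had fold enrichments of 16.64, 20.14, 15.33 and 18.41 and SMARCA4 of 18.49, 19.88, 14.43 and 12.4. GAPDH had 20.06, 24.26, 19.56 and 15.07, and ACTB 18.71, 23.64, 23.34 and 27.94. None of the 4 was called in both pairs. FSCN1, a gene near ACTB that encodes fascin, had 6.94 in 10-T1a against 17.34 in 10-T1b, and 15.08 in 20-T0.5 against 20.67 in 20-T1. Its pileups were 37, 38, 46 and 54, and its background of 4.47 in 10-T1a was above the 1.59, 1.71 and 1.66 of the others, with summits up to 2614 bp apart. MYT1, a negative control locus, had no TSS peak in any of the 14 lists.

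Among distal regions with summits within 500 bp, the largest pileup difference toward fixed was at chr3:14143866-14144584, 18814 bp from the TSS of TMEM43. Its pileups were 27 in 10-T1a, 35 in 20-T0.5, 10 in 10-T1b and 11 in 20-T1, with backgrounds of 1.58 to 1.85, and the other libraries overlapped, with 10 to 23 in the fixed and 9 to 12 in the normalized lists. A region at chr10:62816845-62817476 in EGR2, an early growth response factor, had 17, 21, 7 and 7, and 12 to 14 and 7 to 12 in the other libraries. It lay 1691 bp from the TSS of EGR2, and counts as distal here only because it is more than 1 kb away. Toward normalized, chr1:228510829-228513301 had 19, 17, 40 and 42, and the other libraries kept the order, with 9 to 25 in the fixed and 30 to 35 in the normalized lists. At chr15:81940048-81942204 the pileups were 15, 16, 31 and 33, with 10 to 18 and 22 to 27 in the other libraries, and a region in ARHGEF37 (chr5:149609017-149610696) had 12, 11, 28 and 23, with 9 to 17 and 19 to 25. In these 5 regions the 4 libraries did not overlap between the arms in pileup.

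Other distal regions differed in the background. At chr15:49169009-49170086 in GALK2, a galactokinase gene, the pileups of 17, 18, 19 and 19 were nearly equal, while the backgrounds were 4.47, 3.87, 0.83 and 0.74. The values of 0.83 and 0.74 were the lowest of their lists. At chr3:142976868-142977784, 12860 bp from the TSS of PAQR9, the pileups were 18, 20, 15 and 18 and the backgrounds 1.11, 1.06, 4.28 and 4.36. In EPAS1, which encodes the hypoxia factor HIF-2-alpha, chr2:46340318-46341649 had fold enrichments of 4.02, 3.65, 11.59 and 10.78, from pileups of 17, 15, 24 and 21 and backgrounds of 3.48, 3.39, 1.16 and 1.04. EPAS1 thus differed in both terms.

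The printed promoters differ in the letters TGACG: DHX36 and CHM hold them and SP5 and APOE do not, while USP34 and ADSS1 go the other way. Over all 15813 promoters 29.3% held TGACG on either strand, and of the 8604 of genes with a TSS peak in all 4 lists 36.6% did. Of the 242 with the fold enrichment higher in both fixed lists it was 53.3%, and of the 245 higher in both normalized lists 25.7%. By pileup it was 16 of 30 (53.3%) and 10 of 45 (22.2%). By background the order turned, with 25.6% where the background was higher in both fixed lists and 47.3% where it was higher in both normalized lists. The GC box GGGCGG did not separate the directions, with 72.7% and 71.8% by fold enrichment beside 72.4% of the genes with a peak in all 4 lists, nor did the median GC content of 64.3% in both. CCAAT was at 38.8% and 34.7%, GATAA at 15.3% and 15.9% and the ETS motif CCGGAAG at 28.5% and 18%, each on either strand. Of the genes with a peak in all 4 lists, 37.8%, 13% and 22% held these in turn. By pileup the ETS motif was in 7 of 30 (23.3%) toward fixed and 3 of 45 (6.67%) toward normalized. In the other pairs a gene was called in the pair of its amount alone, a looser rule than a call in both pairs. By fold enrichment this rule gave 942 promoters toward fixed and 878 toward normalized at 5 µg. No share by this rule is given for either of the compared pairs. The share of TGACG differed less in the other pairs, and whether the looser rule made it so was not tested. By fold enrichment it was 42.1% toward fixed and 36.1% toward normalized at 5 µg and, at the lower amounts in turn, 37.1% and 32%, 36% and 35.8%, 36.7% and 30.5%, and 36.9% and 36.9%. By pileup, where the order was mixed, it was 45.7% toward fixed and 32.4% toward normalized at 5 µg, but 36% and 38.1% at 2.5 µg and, at the next lower amounts in turn, 32.5% and 35.2%, 33.6% and 28.5%, and 33.7% and 35.3%. A match describes letters in this window and is not a bound site.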

How the data were processed

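H3K27ac ChIP-seq of K562 was given as 14 peak lists, of which 4 were compared. The submitters' processing notes name BWA 0.5.9, CASAVA 1.4 and hg38. The authors called peaks per library with MACS2 in Partek Flow and deposited for each peak a fold enrichment, which is a ratio over the input. The deposited p-values and q-values are given as -log10. Although hg19 is named in the methods, positions were read as GRCh38, as their contigs show, without conversion. The peak lists hold no read totals, and depth enters here only as pileup.

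The whole-number pileup and the background were recovered from the deposited fold enrichment and -log10 p-value, within 0.0001 of the latter, for 100% of peaks in all 14 lists. On simulated data 100% of pileups were recovered and 0.0617% of non-whole pileups also matched a whole number. Simulated overlaps gave 0 disagreements with counting base by base, and 100% of planted 3-fold differences and 0 of the unchanged features were called. The simulated features varied less than the data, whose log2 differences in fold enrichment had an SD of 0.49 and 0.48 in the 10 and 20 µg pairs. This check of the code therefore gives no rate of false calls in the data.

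Lists were merged with at least 1 bp of overlap. A peak's height in a region or within 1 kb of a TSS was that of its strongest peak. Log2 ratios, with 1 added to pileup and background, were centred on the median of the pair and called at 1.5-fold in both pairs. Genes were the protein-coding genes of RefSeq (GRCh38.p14), with strand from its promoters for 15813 genes and from GENCODE 44 by symbol for 3817, in all 19630 of 19974 (98.3%).

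Named were up to 12 genes per direction with a TSS peak in 1 arm alone, by percentile of fold enrichment, and up to 12 with the largest smaller difference of the 2 pairs. Up to 5 distal regions per direction by the same rules, the loci of the study, and the 2 genes with the largest difference in each gene list were added, of which those that carry a value are given. Genes and regions by pileup with summits within 500 bp were added after the data were seen, as were SLC11A2, ITGAM and the other called list members. The libraries, gene lists, markers and motifs were chosen with earlier results of these data known. No test was made, with 1 library per condition. Alternatives were other q thresholds, equal list sizes, overlap, absence, TSS window, fold, percentile, centring and chromosomes. Python 3.11.15, numpy 2.4.6, pandas 2.3.3, scipy 1.17.1, matplotlib 3.10.9 and bedtools 2.31.1 were used. Results for some genes are not reported here.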

Additional observations from a re-analysis of the deposited data

Results flagged for a closer look

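The 2 pairs went in opposite directions in some regions and genes, and these differences between the pairs were not tested. A peak was found only in the fixed list at 10 µg and only in the normalized list at 20 µg in 2191 regions, and the reverse held in 1753. Where all 4 lists had a peak in a region, the fold enrichment was at least 1.5 times higher in the fixed list at 10 µg and lower at 20 µg in 76, and the reverse in 77. At the TSS, 56 genes had a peak only in the fixed list at 10 µg and only in the normalized list at 20 µg, and 26 the reverse. The fold enrichment at the TSS was higher in the fixed list at 10 µg and lower at 20 µg for 20 genes, and the reverse for 13.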

How the results depend on the processing

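Every condition had 1 library, so that no replicate number pairs the libraries and no result comes from a test. Libraries matched on amount were compared as values. Neither a paired test over the amounts nor a fit of arm and amount was made. At a -log10 q of at least 5, the regions found in both fixed lists alone numbered 1310 (1.91 Mb for the bases), those in both normalized lists alone 2443, those in opposite directions 1411, those missing from 10-T1a, 20-T0.5, 10-T1b and 20-T1 alone 1341, 1311, 1140 and 682, and those called opposite on fold enrichment 62. With a reciprocal overlap of 50% the fixed-only regions came to 8127, beside 8743 normalized-only regions. At 2-fold, 103 regions were higher in fixed, 116 in normalized and 1 opposite, and 24, 37 and 3 TSSs. By percentile within a list, with 10 points, it was 2400, 3636 and 2169 regions and 200 opposite TSSs. The mean Jaccard index within an arm was 0.61 with all deposited peaks, 0.647 at a -log10 q of 3, 0.694 at 5 and 0.63 with equal list sizes, and between arms 0.565, 0.594 and 0.637 for the first 3, so that lists of an arm stayed closer in each of these. Fixed-only regions had a peak in 31% (q of 3), 25.5% (q of 5) and 33.9% (absence at any q) of the other fixed lists, and in 24.9% (all peaks), 20.3%, 19.5% and 21.8% of the other normalized lists. Normalized-only regions had one in 15%, 11%, 8.25% and 12.6% of the other fixed lists and in 47.1% (all peaks), 46% (q of 3) and 46% (absence) of the other normalized lists.

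Chosen after the data were seen, pileup alone gave 261, 384 and 71 regions (fixed, normalized, opposite) and 36 and 52 TSSs. Background alone, with a lower background read as higher enrichment, gave 569, 704 and 41 regions and 165, 204 and 17 TSSs. Summits within 500 bp gave 767 normalized and 74 opposite regions, and 173, 170 and 10 TSSs. With peaks within 5 kb of the TSS the smaller of the 2 log2 differences turned at ZNF609 (-0.00), ENG (0.09), DDR1 (0.23) and TSKS (0.30), and fell under 1.5-fold at ADSS1 (-0.50) and LOC124905230 (-0.23), and by background alone at ZNF609 (-0.11), ENG (0.14) and LOC124905230 (0.00). The cause was not tested. Of all values recomputed for a comparison, 57 moved and 104 did not. Moved means by more than 1.5 times for a count or a length. For a mean Jaccard index it means by more than the SD of the list pairs behind it. For a share of lists it means outside an interval that takes each region in each list as independent, which makes it narrow. Depth limits the weak peaks most, since a pileup of 10 covers 4.8 to 18.4 by counting error.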
